A study of Mus musculus with 2 samples.

Results

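The respiratory chain was followed through single cells of ischemic mouse adductor muscle, as 53 genes matched by symbol among the 32574 genes of the deposited count tables. Of these, 40 are nuclear genes and 13 are the protein-coding genes of the mitochondrial genome. The members belong to complex I (12 nuclear, 7 mitochondrially encoded), complex II (4 nuclear), complex III (6 and 1), complex IV (9 and 3), complex V (8 and 2) and the mobile carrier cytochrome c (1 nuclear gene). Muscle was taken on day 7 after femoral artery ligation, an operation that closes the main artery of the hind limb, from Apoa1bp-/- mice, which lack AIBP, and from WT control littermates. Both groups had the ligation, 4 mice of each genotype were operated on, and 1 droplet library per genotype was analysed. The labels state neither the mice's age nor whether a genotype's animals were pooled, and no unoperated muscle was analysed. All cells released by collagenase D were taken, with no sort.

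The respiratory chain sits in the inner mitochondrial membrane, where complexes I to IV pass electrons from NADH and succinate to oxygen, complexes I, III and IV pump protons, and complex V, the ATP synthase, uses the returning protons to make ATP. Complexes I, III, IV and V are mosaics of subunits made from nuclear mRNAs and subunits made inside the organelle from the mitochondrial genome, while complex II is wholly nuclear. In skeletal muscle, which is rich in mitochondria, some complex IV subunits are replaced by muscle isoforms encoded by separate nuclear genes.

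The unit counted was the unique molecular identifier (UMI), which marks one captured mRNA molecule, and levels are given as counts per 1000000 UMIs of the same cell class (CPM). After filtering, the Apoa1bp-/- library kept 8640 cells and 72919379 UMIs (median 6610.5 UMIs per cell), and the WT library 12173 cells and 65338073 UMIs (median 4145). The targeted gene, Naxe (the current symbol of Apoa1bp), had 0 UMIs in the Apoa1bp-/- library, where 3 UMIs would be 0.0411 CPM, and 3260 UMIs (49.9 CPM) in the WT library. The libraries shared 43 cell barcodes, 0.458% of the Apoa1bp-/- and 0.306% of the WT barcodes. Cells were sorted into classes by lists of 8 marker genes, none of them a respiratory chain gene, which left 18.1% of Apoa1bp-/- and 14.01% of WT cells outside any class. Among the 10 leading genes of every class, at least 3 were its own markers and none belonged to another list. Since the same lists defined the classes, this is no independent check of them. Levels are given for the 12 classes with at least 50 cells in each library, and ratios, always Apoa1bp-/- over WT, for the 8 classes with at least 100. Since each genotype had a single library and cells are not replicates, differences carry no replicate check and no test was made. Intervals are exact, at 95%, and reflect the error of counting alone. Free RNA from broken cells can add UMIs of these genes to every class, and its part in any level was not tested.

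The nuclear and the mitochondrially encoded members were distributed differently over the cell types. Nuclear members took the largest share of UMIs in muscle fibre barcodes, with 4.90% of the class in the Apoa1bp-/- library (4.84 to 4.96%) and 4.81% in the WT library (4.75 to 4.87%). Committed myocytes, the fusing cells that carry Myog, followed with 3.03% in Apoa1bp-/- and 2.70% in WT, and satellite cells and myoblasts with 2.06% in Apoa1bp-/- and 1.86% in WT. The other 9 classes lay between 1.17% and 1.82% in the Apoa1bp-/- library and between 0.983% and 1.65% in the WT library, with neutrophils lowest in both. The 3 muscle classes therefore stood in the same order in both libraries, with intervals that did not overlap.

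The mitochondrially encoded members did not follow this order. In muscle fibre barcodes within the limit of 10% mitochondrial UMIs they took 0.803% of UMIs in the Apoa1bp-/- library (0.779 to 0.829%) and 1.05% in the WT library (1.03 to 1.08%), below the other 11 classes in both. This limit removed 2 Apoa1bp-/- barcodes and 1 WT barcode of the fibre class, and with them counted the shares were 1.11% in Apoa1bp-/- and 1.07% in WT fibres. Apoa1bp-/- neutrophils then had the lowest share of their library, at 1.06%. Schwann cells had the highest share in both, 2.81% in Apoa1bp-/- and 2.29% in WT. Per nuclear UMI, muscle fibre barcodes held 0.164 mitochondrially encoded UMIs in the Apoa1bp-/- library and 0.219 in the WT library, against 0.848 in Apoa1bp-/- and 0.600 in WT committed myocytes and 1.77 in Apoa1bp-/- and 1.66 in WT Schwann cells. The fibre class had the lowest depth of these classes, with medians of 1101 UMIs per barcode in the Apoa1bp-/- library and 1155 in the WT library. Low depth was not particular to it, as neutrophils had medians of 1599 in Apoa1bp-/- and 1192 in WT. Muscle fibres are long multinucleate cells and are too large for a droplet, so these barcodes cannot be told apart from fragments or free fibre RNA.

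**Figure D1:**
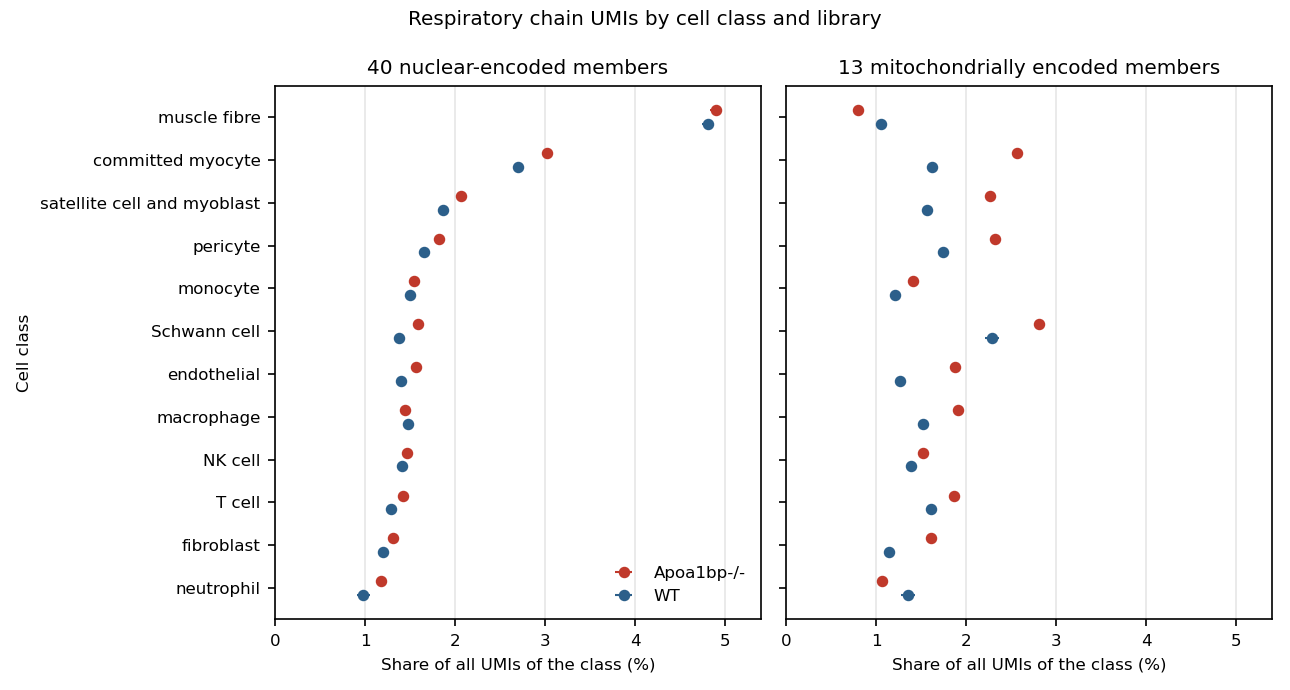
Share of all UMIs of each cell class taken by the 40 nuclear members (left panel) and the 13 mitochondrially encoded members (right panel), in percent, with exact 95% counting intervals (often smaller than the points). Apoa1bp-/- points stand above WT points. Muscle fibre is highest in the left panel (4.90% in Apoa1bp-/-, 4.81% in WT) and, within the limit on mitochondrial UMIs, lowest in the right panel (0.803% in Apoa1bp-/-, 1.05% in WT).

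Member by member, 35 of the 40 nuclear members were at least 1.5-fold above the median class (after adding 5 CPM to each level) in muscle fibre barcodes in both libraries, where 7.3% of 13569 genes passed the same limit. The median member stood 3.14-fold above the median class in the Apoa1bp-/- and 3.28-fold in the WT library. Cox6a1 and Cox8a, both complex IV subunits, were instead lower in fibres than in the median class by the same limit (21.2% of genes), and Ndufs1, Sdha and Uqcrc2 passed neither. None of the 13 mitochondrially encoded members passed the limit upward in fibres, and mt-Nd2 was lower. In committed myocytes 28 of the 40 nuclear members were higher (12.8% of genes) and 1 of 13 mitochondrially encoded members, mt-Cytb. Satellite cells and myoblasts had 6 nuclear members above the limit (Ndufv1, Uqcrfs1, Cyc1, Cox8a, Atp5b and Atp5o, against 13.6% of genes).

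Outside muscle, few members were past this limit. Neutrophils had 12 nuclear members below it (16% of genes), among them Uqcrb, Cox5a and Atp5o. The WT neutrophil class held 56 cells, with 18 UMIs of the 4 complex II members and 50 of the 6 nuclear complex III members. Counts against the median class were made without intervals. Schwann cells had 6 mitochondrially encoded members above the limit (mt-Nd2, mt-Nd4, mt-Nd4l, mt-Cytb, mt-Atp6 and mt-Atp8, against 21.7% of genes) and no nuclear one. Pericytes had Atp5b above (15% of genes) and Ndufa4 below it (1.64%). Macrophages and fibroblasts, the classes with the most cells, had 1 (Ndufs1, against 9.82% of genes) and 2 (Ndufb7 and Cox5a, against 4.02%) nuclear members below it and none above. T cells had Ndufa5 and Uqcrb (6.91% of genes), NK cells Uqcrb (11.1%) and Schwann cells Cox5a (3.24%) below it. Endothelial cells had no nuclear member above (14.4%) or below it (2.47%), nor had monocytes (9.62% and 7.01%), and satellite cells and myoblasts had none below it (5.2%).

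The fibre-low members Cox6a1 and Cox8a have muscle isoforms, Cox6a2 and Cox8b, and these were high where the members were low. In fibre barcodes Cox8b had 1142 CPM in the Apoa1bp-/- library and 1185 CPM in the WT library, and Cox8a had 772 CPM in Apoa1bp-/- and 878 CPM in WT fibres. Cox8b made up 59.7% of the UMIs of this pair in Apoa1bp-/- fibres (56.4 to 62.8%) and 57.4% in WT fibres (54.3 to 60.5%), and 1.16% in Apoa1bp-/- and 1.60% in WT committed myocytes. Cox6a2 made up 91.9% of its pair with Cox6a1 in Apoa1bp-/- fibres and 95.8% in WT fibres, against 12.5% in Apoa1bp-/- and 25.3% in WT committed myocytes. Cox7a1, the muscle partner of Cox7a2, made up 42.0% of its pair in Apoa1bp-/- and 37.7% in WT fibres, and 1.37% in Apoa1bp-/- and 1.40% in WT committed myocytes. Unlike the other pairs, Cox7a2 itself was among the 35 members that were higher in fibres. All 3 shares were thus highest in fibres in both libraries, and myocytes, which already had more of most nuclear members, had mainly the general isoforms. These shares are of UMIs, not per transcript length, and are compared between classes only.

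The promoters of Cox8b and Cox8a are shown because Cox8b took a high share of this pair in fibres alone among the muscle classes, while Cox8a was present in all of them. RefSeq sequences (GRCm38.p6) run from 250 bases before to 50 bases after each gene start, both on the minus strand, Cox8b at chr7:140900397-140900696 and Cox8a at chr19:7217567-7217866. Capitals mark the motif CAGCTG, an E-box of the kind bound by myogenic factors, or CCGGAAG, the core bound by ETS factors, which reads CTTCCGG on the other strand.
Cox8b: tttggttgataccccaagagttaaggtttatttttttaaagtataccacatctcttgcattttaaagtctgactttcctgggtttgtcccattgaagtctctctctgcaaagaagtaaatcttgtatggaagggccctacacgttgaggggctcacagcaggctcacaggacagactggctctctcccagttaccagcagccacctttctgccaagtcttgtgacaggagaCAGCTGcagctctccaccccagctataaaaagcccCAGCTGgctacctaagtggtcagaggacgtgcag
Cox8a: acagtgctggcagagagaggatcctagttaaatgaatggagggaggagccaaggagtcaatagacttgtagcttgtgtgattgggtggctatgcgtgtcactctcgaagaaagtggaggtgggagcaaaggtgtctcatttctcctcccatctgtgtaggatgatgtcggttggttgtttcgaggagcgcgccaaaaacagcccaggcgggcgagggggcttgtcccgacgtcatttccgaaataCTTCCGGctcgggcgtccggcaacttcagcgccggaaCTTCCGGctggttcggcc
CAGCTG was present in the Cox8b window and CCGGAAG in the Cox8a window, each at 2 places. The windows of Cox7a1 and Cox7a2 held none of the 4 motifs searched, and that of Cox6a1 held CCGGAAG and the NRF1 motif. Of the 40 nuclear members, 29 matched the table. CCGGAAG, searched on both strands, stood in the windows of 8 of them (27.6%: Atp5e, Atp5j, Cox6a1, Cox8a, Ndufb7, Ndufs3, Sdhb and Sdhd) and in those of 9.93% of all 27025 genes. The motif of NRF1, a regulator of many respiratory chain genes, stood in 2 of 29 (6.90%, Cox6a1 and Uqcrc1) and in 1.07% of genes. CAGCTG stood in 2 of 29 (Atp5b and Ndufv2) and in 18.3% of genes, and TAAAAATA, a form of the MEF2 motif, in none of 29 and in 3.09% of genes. Such matches describe the letters of the windows only.

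Pericytes, the mural cells of capillaries, used a different pair of isoforms. Cox4i2, an isoform of Cox4i1 known from lung and hypoxic cells, had 664 CPM in Apoa1bp-/- and 531 CPM in WT pericytes. It made up 39.6% of its pair in the Apoa1bp-/- library and 36.5% in the WT library, against 3.73% in Apoa1bp-/- and 3.16% in WT endothelial cells. Ndufa4l2, a homologue of the complex IV subunit Ndufa4, had 1270 CPM in Apoa1bp-/- and 1017 CPM in WT pericytes, and Ndufa4 had 334 CPM in Apoa1bp-/- and 207 CPM in WT pericytes. Ndufa4l2 thus held 79.2% of that pair's UMIs in Apoa1bp-/- and 83.1% in WT pericytes, against 16.2% in Apoa1bp-/- and 13.3% in WT fibroblasts. AA467197, another homologue of Ndufa4, had 189 CPM in Apoa1bp-/- and 32.8 CPM in WT monocytes, and 126 CPM in Apoa1bp-/- and 265 CPM in WT neutrophils, from 11 to 293 UMIs. Its order between genotypes was opposite in these classes, of which the WT library held 65 and 56 cells. Cox6b2, the testis isoform of a complex IV subunit, stayed at 7.90 CPM in Apoa1bp-/- and 6.05 CPM in WT cells over all kept cells.

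**Figure D2:**
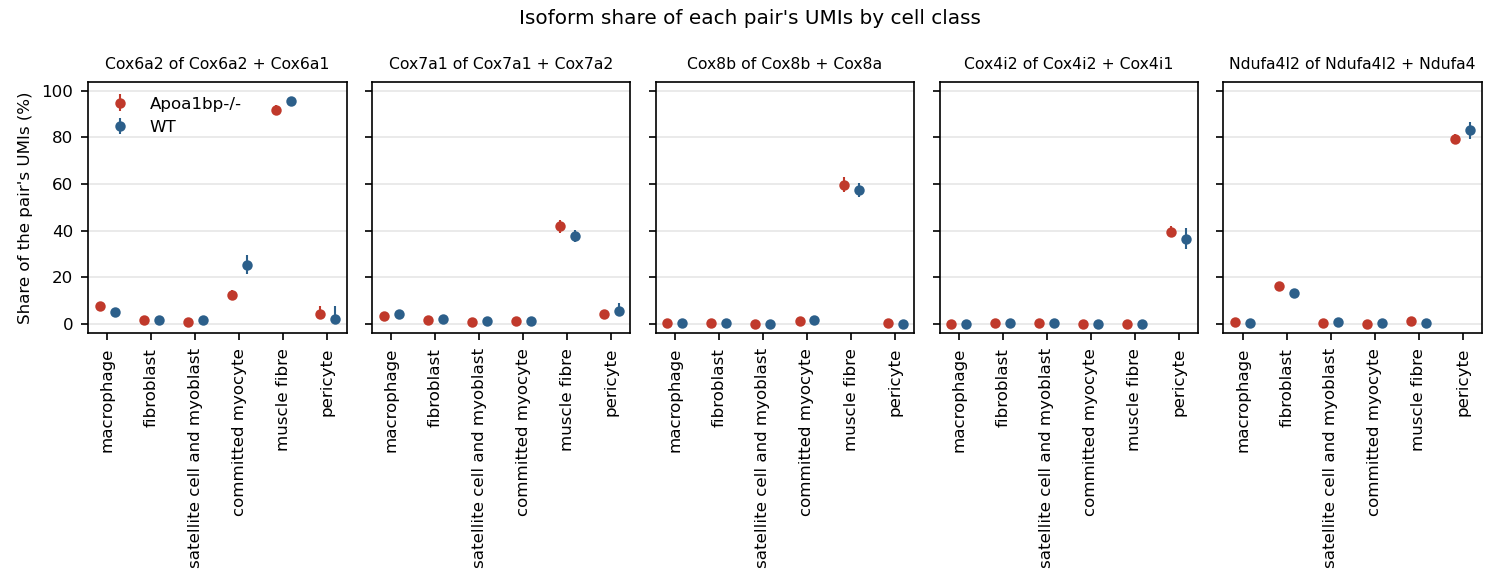
Share of each isoform pair's UMIs that came from the first-named isoform, in percent, in 6 cell classes, with exact 95% intervals. Apoa1bp-/- points stand left of WT points. Cox6a2, Cox7a1 and Cox8b are high in muscle fibre (91.9%, 42.0% and 59.7% in Apoa1bp-/-), and Cox4i2 and Ndufa4l2 in pericytes (39.6% and 79.2%).

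Between genotypes, the nuclear members as a list lay somewhat above WT in most classes. In macrophages, the class with the most cells, the median log2 ratio of the list was only 0.01. Of the classes compared, macrophages alone had summed nuclear UMIs below WT (ratio 0.984, 0.979 to 0.988). The number at least 25% higher in the Apoa1bp-/- library (here called past the upper limit), beside the share of all genes past the same limit, was 16 of 40 in endothelial cells (19.2% of genes), 13 in fibroblasts (16.1%) and 8 in macrophages (9.31%). It was 14 in T cells (35.1%), 15 in satellite cells and myoblasts (19.7%), 17 in committed myocytes (21.1%), 9 in muscle fibres (25.4%) and 19 in pericytes (26.6%). The members' own share was thus not above that of all genes in T cells (35.0%) and fibres (22.5%). The number at least 20% lower was 1 in endothelial cells (34.6% of genes), 0 in fibroblasts (26.6%), 1 in macrophages (30.6%) and 0 in T cells (34.3%). It was 0 in satellite cells and myoblasts (25.5%), 0 in committed myocytes (33.4%), 7 in muscle fibres (49.4%) and 6 in pericytes (43%). Across all 320 pairs of a nuclear member and a class, 111 were higher (21.8% of the 81491 pairs of any gene and a class), 103 of them with an interval that left out 1 (9.13%). Lower were 15 (34.7% of all pairs), 13 with such an interval (16.6%). The pairs without it were in T cells (9 of the 14 higher had one) and pericytes (16 of 19), where some members held as few as 10 and 15 UMIs in a library. Genes with many UMIs have narrower intervals, and the shares with an interval were not matched for level. The median log2 ratio of the 40 ran from -0.03 in fibres to 0.25 in committed myocytes, and that of all genes from -0.30 in fibres to -0.04 in T cells.

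Transcript length moved with these ratios over the whole gene set. Genes whose longest annotated transcript is under 2000 bases had higher Apoa1bp-/- to WT ratios than longer genes in each of the 8 classes, and 32 of the 40 nuclear members are that short. The shortest genes went the other way. Those under 500 bases, among them Ndufa1 and Atp5e, had lower medians than those of 500 to 1000 bases in every class (-0.26 against 0.11 in macrophages). In committed myocytes the 2576 short genes had a median log2 ratio of 0.11 and the 7074 longer genes -0.20, and the 32 short members 0.26. In macrophages the medians were 0.08 for short genes, -0.22 for longer genes and 0.04 for the short members. In fibroblasts they were 0.18, -0.16 and 0.20, and in pericytes 0.08, -0.32 and 0.33. The short members thus lay nearest to the short genes in macrophages and fibroblasts and farthest above them in pericytes, among these 4 classes. Of the 32 short members, 13 were past the upper limit in endothelial cells (37% of short genes), 12 in fibroblasts (33.8%), 8 in macrophages (19.6%), 10 in T cells (42.2%), 13 in satellite cells and myoblasts (32.6%), 14 in committed myocytes (32.1%), 7 in fibres (29.2%) and 17 in pericytes (38.5%). In the same order 1, 0, 1, 0, 0, 0, 5 and 3 were at least 20% lower, against 14.5%, 10.2%, 13.3%, 25.3%, 13.4%, 19.8%, 36.5% and 27.6% of short genes. Over all kept cells 14 of the 32 were past the upper limit (33.9% of short genes) and 0 were that much lower (10.7%). The part of length in the members' ratios was not tested.

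**Figure D3:**
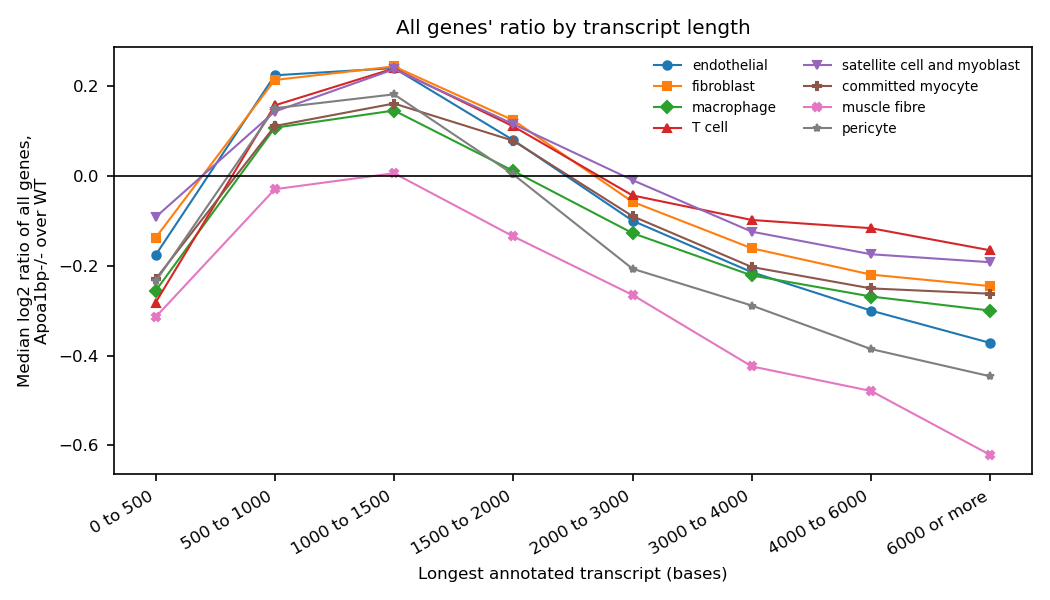
Median log2 ratio (Apoa1bp-/- over WT) of all genes with at least 5 CPM in either library, by the length of the longest annotated transcript in bases, 1 line per cell class. In macrophages the median was 0.15 for 1000 to 1500 bases and -0.30 for 6000 bases or more.

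Members differed in how often they were higher from class to class. Of the 40 nuclear members, 14 were at least 25% higher, with an interval that left out 1, in at least 4 of the 8 classes, which 7.36% of the 7129 genes measured in every class also were (12.6% were lower on that rule). Of the 32 short members 12 were among the 14, and 17.3% of 2066 short genes passed. This rule is met more easily by genes with many UMIs, and neither share of genes was matched for level. The classes come from the same 2 libraries, so recurrence over classes is not replication. Another 11 (Ndufa2, Ndufb2, Ndufb7, Sdhc, Uqcrq, Cox4i1, Cox7a2, Cox7c, Cox8a, Atp5b and Atp5e) were past neither limit, on that rule, in any class. The 14 came from every complex, 3 of 12 in complex I, 2 of 4 in complex II, 4 of 6 in complex III, 1 of 9 in complex IV, 3 of 8 in complex V, and cytochrome c. Of the 5 complexes, complex III had the highest list median in each of the 8 classes (0.15 to 0.57), and complex IV the lowest in 5 of them (-0.19 to 0.11 over all 8). Those of complexes II, III and V were above 0 in all 8 classes. Complex IV was above 0 in 3 classes, and in 7 where library sizes were rescaled by TMM or median-of-ratios factors, which raised the median of all genes by 0.02 to 0.28.

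In complex I, Ndufv2 and Ndufs3, both in the arm that takes electrons from NADH, and Ndufb8, an accessory subunit of the membrane arm, were the recurrent members. Ndufv2 had 187 CPM in the Apoa1bp-/- and 109 CPM in the WT library over all kept cells, a ratio of 1.72 (1.67 to 1.77), and was past the limit in all 8 classes (1.35 to 2.05). Ndufs3 had 156 CPM in Apoa1bp-/- and 107 CPM in WT cells (ratio 1.46, 1.42 to 1.51) and was past it in 7 classes. Ndufb8 had 396 CPM in Apoa1bp-/- and 300 CPM in WT cells (ratio 1.32, 1.30 to 1.34) and was past it in 6. Ndufa2, the nuclear complex I member with the most UMIs, went the other way by a small amount, at 470 CPM in Apoa1bp-/- and 539 CPM in WT cells (ratio 0.872, 0.859 to 0.885), and was below WT in all 8 classes, or in 5 under TMM factors. Subunits of 1 complex thus differed from each other by more than their counting error.

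Complex II, which oxidises succinate, was split in the same manner. Sdhd, a membrane anchor, had 97.5 CPM in the Apoa1bp-/- and 58.3 CPM in the WT library (ratio 1.67, 1.61 to 1.74) and was past the limit in all 8 classes (1.42 to 2.31). Sdhb, the iron-sulfur subunit, had 221 CPM in Apoa1bp-/- and 161 CPM in WT cells (ratio 1.37, 1.34 to 1.40) and was past it in 6. Sdha, the flavoprotein that holds the catalytic site, had 73.3 CPM in Apoa1bp-/- and 75.7 CPM in WT cells, and Sdhc, the other anchor, 75.3 CPM in Apoa1bp-/- and 78.9 CPM in WT cells. On the same rule those 2 members were higher in none of the classes, and Sdha was lower in fibres (ratio 0.580, 0.392 to 0.847).

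Complex III held the member with the highest ratio of all 40. Uqcrb, a small subunit (ENSMUSG00000021520 in the files), had 522 CPM in the Apoa1bp-/- and 254 CPM in the WT library (ratio 2.06, 2.02 to 2.097), and its ratio ran from 1.70 in fibres to 2.24 in committed myocytes. Uqcrb had 1615 CPM in Apoa1bp-/- and 952 CPM in WT fibres, 710 CPM in Apoa1bp-/- and 317 CPM in WT committed myocytes, 489 CPM in Apoa1bp-/- and 266 CPM in WT macrophages, and 687 CPM in Apoa1bp-/- and 343 CPM in WT endothelial cells. Its Apoa1bp-/- level was the higher in all 8 classes. Uqcrfs1, the Rieske iron-sulfur protein, had 192 CPM in Apoa1bp-/- and 111 CPM in WT cells (ratio 1.73, 1.69 to 1.78) and was past the limit in 6. Uqcrc2, a core protein, had 105 CPM in Apoa1bp-/- and 63.2 CPM in WT cells (ratio 1.66, 1.60 to 1.72), and Cyc1, cytochrome c1, 158 CPM in Apoa1bp-/- and 105 CPM in WT cells (interval of the ratio 1.46 to 1.55), and each was past the limit in 5 classes. Uqcrq, with the most UMIs of the complex's nuclear members, had 529 CPM in Apoa1bp-/- and 525 CPM in WT cells (ratio 1.01, 0.994 to 1.02). Cycs, the soluble cytochrome c that carries electrons to complex IV, had 294 CPM in Apoa1bp-/- and 212 CPM in WT cells (ratio 1.39, 1.36 to 1.42) and was past the limit in 4 classes.

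Complex IV, which reduces oxygen, had 1 recurrent nuclear member. Cox5a had 573 CPM in the Apoa1bp-/- and 389 CPM in the WT library (ratio 1.47, 1.451 to 1.497) and was past the limit in 7 classes. Cox8a had 1446 CPM in Apoa1bp-/- and 1409 CPM in WT cells (ratio 1.03, 1.02 to 1.04), and was within the limits in every class. Cox6a1 (median ratio over the classes 0.890), Cox6c (0.901), Cox7c (0.910) and Cox7a2 (0.912) were below WT in 6, 8, 7 and 7 classes by CPM, but in 5, 4, 5 and 3 under TMM factors. In complex V, Atp5c1, the gamma subunit of the rotor, had 406 CPM in Apoa1bp-/- and 277 CPM in WT cells (ratio 1.46, 1.44 to 1.49) and was past the limit in 5 classes. Atp5d, the delta subunit of the rotor, had 480 CPM in Apoa1bp-/- and 338 CPM in WT cells (ratio 1.42, 1.40 to 1.44), and Atp5o, part of the stalk, 319 CPM in Apoa1bp-/- and 233 CPM in WT cells (ratio 1.37, 1.34 to 1.40), and both were past it in 7. Atp5e, with the most UMIs of the complex's nuclear members, had 1159 CPM in Apoa1bp-/- and 1256 CPM in WT cells (ratio 0.923, 0.914 to 0.932). Atp5b, the catalytic beta subunit, had 425 CPM in Apoa1bp-/- and 354 CPM in WT cells but a median ratio of 1.00 over the classes.

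**Figure D4:**
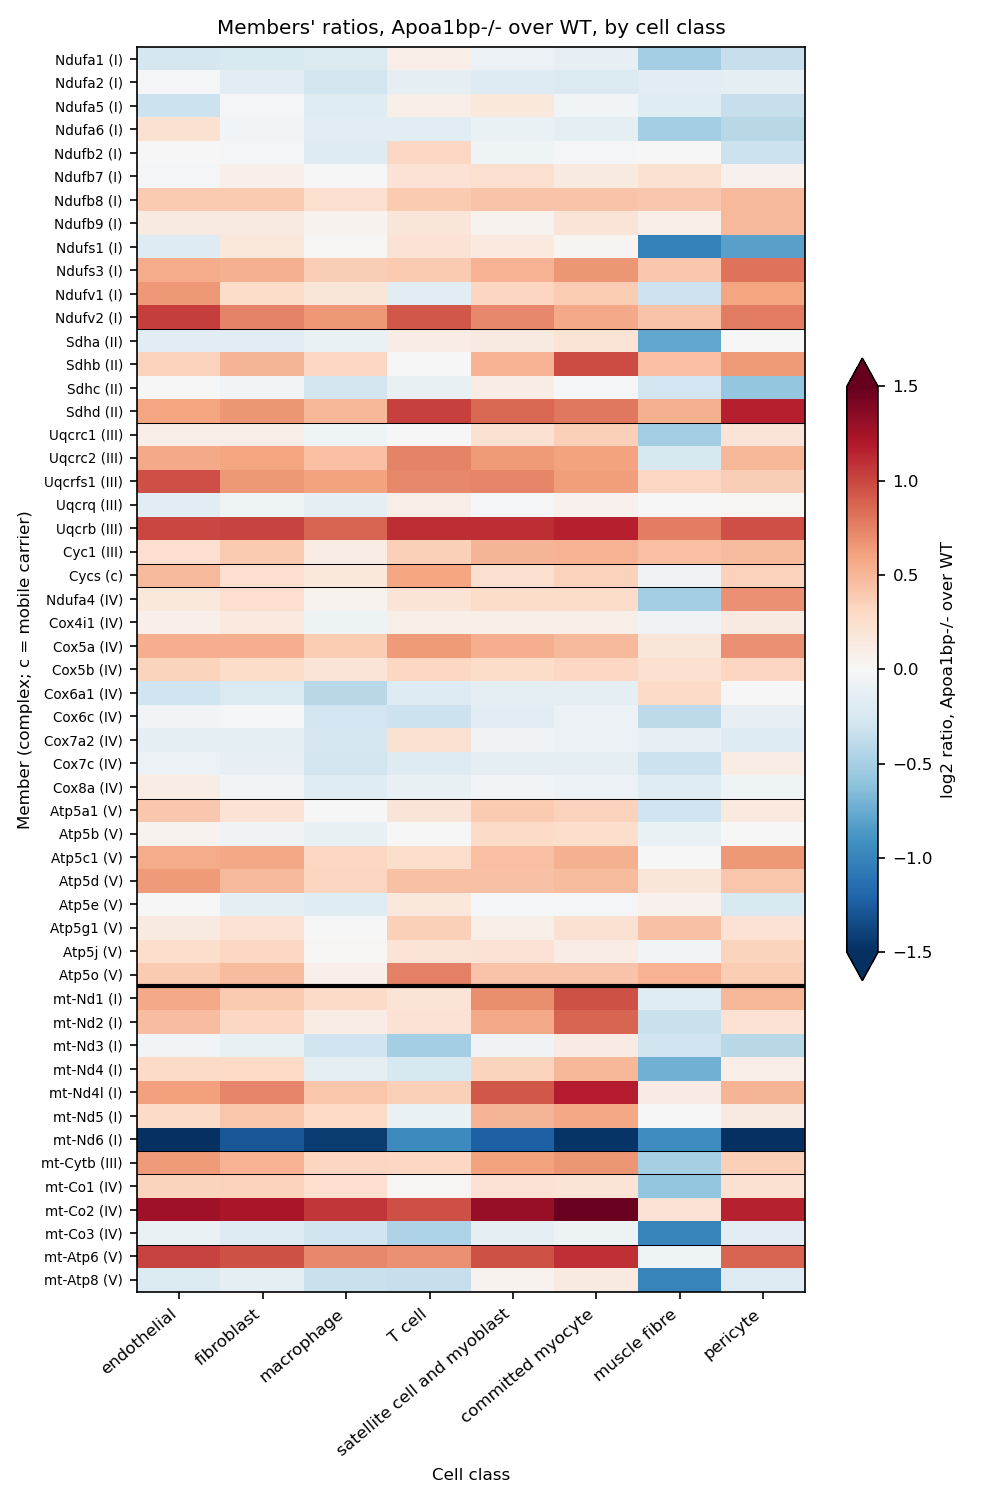
Log2 ratio (Apoa1bp-/- over WT) of each of the 53 members in 8 cell classes, red where higher in Apoa1bp-/- and blue where lower, with the colour scale ending at 1.5 either way. Members are grouped by complex, nuclear above the thick line and mitochondrially encoded below it. Members such as Uqcrb (ratios 1.70 to 2.24) and mt-Co2 (1.16 to 2.79) keep 1 colour across the classes, as does mt-Nd6 (0.300 to 0.513) in blue.

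Over all kept cells the log2 ratios of the mitochondrially encoded members ran from -1.33 to 1.19, and those of the nuclear members from -0.20 to 1.04. Of the 13, 7 were higher in endothelial cells and in fibroblasts, 8 in satellite cells and myoblasts and in committed myocytes, 5 in pericytes, 4 in macrophages, 3 in T cells and 0 in fibres, beside the shares of genes given for the nuclear list. At least 20% lower were 1 of the 13 in endothelial cells, 1 in fibroblasts, 2 in macrophages, 4 in T cells, 1 in satellite cells and myoblasts, 1 in committed myocytes, 7 in fibres and 2 in pericytes. All 13 are under 2000 bases long, so the shares of short genes given above also stand beside these counts. Of the 104 pairs of such a member and a class, 42 were higher, all 42 with an interval that left out 1 (9.13% of all pairs). Lower were 19, of which 13 had such an interval (16.6%). Among the lower, 1 of 4 in T cells, 5 of 7 in fibres and 1 of 2 in pericytes had it. As a sum the 13 members had 1.88% of all kept UMIs in the Apoa1bp-/- library and 1.36% in the WT library. Mitochondrially encoded UMIs per nuclear UMI were 1.20 in Apoa1bp-/- and 0.907 in WT endothelial cells, 1.23 in Apoa1bp-/- and 0.948 in WT fibroblasts, and 1.32 in Apoa1bp-/- and 1.03 in WT macrophages. They were 1.10 in Apoa1bp-/- and 0.840 in WT satellite cells and myoblasts, 1.28 in Apoa1bp-/- and 1.05 in WT pericytes, and 1.31 in Apoa1bp-/- and 1.254 in WT T cells. This balance was 1.04 to 1.41 times WT in these 6 classes and committed myocytes and does not depend on library totals. Where each cell counted equally instead of each UMI, the median over the 8 classes was 1.13 rather than 1.29. In T cells the balance had overlapping intervals (1.27 to 1.35 in Apoa1bp-/-, 1.20 to 1.30 in WT). The sum also joins members with unlike ratios. Median ratios over the classes were highest for mt-Co2 (2.28) and mt-Atp6 (1.88). They were under 1 for mt-Nd3 (0.871), mt-Nd6 (0.391), mt-Co3 (0.887) and mt-Atp8 (0.872), and 1.15 to 1.48 for the rest. The balance without mt-Co2 and mt-Atp6 was not calculated.

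Muscle fibres went the other way, but on few barcodes. Their balance was 0.164 in the Apoa1bp-/- library and 0.219 in the WT library, a ratio of 0.748. Counting the 2 Apoa1bp-/- and 1 WT barcodes over the mitochondrial limit added 1578 mitochondrially encoded UMIs to the 3934 of the Apoa1bp-/- class and 76 to the 5182 of the WT class, and the ratio became 1.03. In fibre barcodes of at least 2000 UMIs it was 1.11, so no direction is given for this class, and the 7 mitochondrially encoded members that were lower there carry the same limit. The 7 nuclear members that were lower in fibres were Ndufa1, Ndufa4, Ndufa6, Ndufs1, Sdha, Uqcrc1 and Cox6c (ratios 0.489 to 0.759). In fibres Malat1, a nuclear RNA, had 1785 CPM in the Apoa1bp-/- and 4477 CPM in the WT library, and 9 of 10 genes known to respond to tissue dissociation were at least 20% lower, where 49.4% of all genes were. Of those 10 genes, 7 were that low in satellite cells and myoblasts (25.5% of genes) and 6 in committed myocytes (33.4%). Over all kept cells Malat1 had 7743 CPM in Apoa1bp-/- and 11603 CPM in WT cells, and all 4 haemoglobin genes were lower in the Apoa1bp-/- library. The part of these in the members' ratios was not tested.

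Within the mitochondrial genome, neighbouring genes had unlike ratios. The 2 pairs of reading frames that share more than 1 base on the same strand are printed here, since each pair is carried on 1 shared mRNA, with the bases common to both frames in capitals (GENCODE M21 on GRCm38, plus strand, chrM:7897-7999 and chrM:10137-10203).
mt-Atp8/mt-Atp6: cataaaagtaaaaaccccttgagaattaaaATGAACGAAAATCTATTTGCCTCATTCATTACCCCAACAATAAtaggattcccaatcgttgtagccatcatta
mt-Nd4l/mt-Nd4: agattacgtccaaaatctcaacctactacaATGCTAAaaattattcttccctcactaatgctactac
The frames share 43 bases in the first pair and 7 in the second, and mt-Atp6 and mt-Co3 share 1 base, at chrM:8607. mt-Atp6, a membrane subunit of the proton channel of complex V, had 3376 CPM in the Apoa1bp-/- and 1786 CPM in the WT library (ratio 1.89, 1.88 to 1.90), while mt-Atp8, its partner on the same mRNA, had 104 CPM in Apoa1bp-/- and 112 CPM in WT cells (ratio 0.932, 0.902 to 0.963). mt-Atp6 was past the limit in 7 classes, while mt-Atp8 was past it in none and was below WT in 6 by CPM, or in 5 under TMM factors. mt-Nd4l had 646 CPM in Apoa1bp-/- and 393 CPM in WT cells (ratio 1.65, 1.62 to 1.67), and mt-Nd4, downstream on the same mRNA, 999 CPM in Apoa1bp-/- and 876 CPM in WT cells (ratio 1.14, 1.13 to 1.15). In both pairs the genes of 1 mRNA had intervals that did not overlap. Since the frames share 1 mRNA, these ratios are of the UMIs assigned to each frame and not of separate mRNAs. Where along the mRNA the UMIs were captured was not tested. The labels do not say how UMIs falling in an overlap were assigned.

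The complex IV genes of the mitochondrial genome also parted. mt-Co2, which carries the entry site for electrons from cytochrome c, had 3365 CPM in the Apoa1bp-/- and 1478 CPM in the WT library (ratio 2.28, 2.26 to 2.29), with ratios from 1.16 in fibres to 2.79 in committed myocytes. Its levels were 1389 CPM in Apoa1bp-/- and 1195 CPM in WT fibres, 4455 CPM in Apoa1bp-/- and 1595 CPM in WT committed myocytes, 3693 CPM in Apoa1bp-/- and 1763 CPM in WT macrophages, and 2688 CPM in Apoa1bp-/- and 1148 CPM in WT fibroblasts. The fibre ratio became 1.51 with the barcodes over the mitochondrial limit counted. mt-Co1, the catalytic subunit, had 4272 CPM in Apoa1bp-/- and 3577 CPM in WT cells (ratio 1.19, 1.19 to 1.20). mt-Co3, another core subunit, had 2336 CPM in Apoa1bp-/- and 2711 CPM in WT cells (ratio 0.862, 0.856 to 0.867) and was below WT in all 8 classes, or in 5 under TMM factors. mt-Cytb, the complex III member, had 2293 CPM in Apoa1bp-/- and 1576 CPM in WT cells (ratio 1.45, 1.44 to 1.47), was past the limit in 6 classes and was lower in fibres (0.705, 0.625 to 0.796), where the ratio became 1.00 with the same barcodes counted. The order mt-Co2, mt-Co1, mt-Co3 held in each of the 8 classes.

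Among the complex I genes of the mitochondrial genome, mt-Nd1 had 694 CPM in the Apoa1bp-/- and 483 CPM in the WT library (ratio 1.44, 1.42 to 1.46) and mt-Nd2 372 CPM in Apoa1bp-/- and 283 CPM in WT cells (ratio 1.31, 1.29 to 1.34). mt-Nd5 had 211 CPM in Apoa1bp-/- and 153 CPM in WT cells (ratio 1.38, 1.35 to 1.42), and mt-Nd3 128 CPM in Apoa1bp-/- and 140 CPM in WT cells (ratio 0.914, 0.888 to 0.941), below WT in 7 classes by CPM or in 5 under TMM factors. These 4 genes lie on the strand that also carries the other members but mt-Nd6. mt-Nd6, the one protein-coding gene of the opposite strand, had 16.7 CPM in Apoa1bp-/- and 41.8 CPM in WT cells (1217 UMIs in Apoa1bp-/- and 2732 in WT, ratio 0.399, 0.373 to 0.427). It was below WT in all 8 classes under every scaling tried, with ratios from 0.300 in endothelial cells to 0.513 in T cells, and was at least 20% lower with an interval that left out 1 in 6 of them. mt-Nd5 and mt-Nd6 overlap by 14 bases on opposite strands, and the labels do not say how strand was used in counting, so UMIs from the overlap cannot be told apart.

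**Figure D5:**
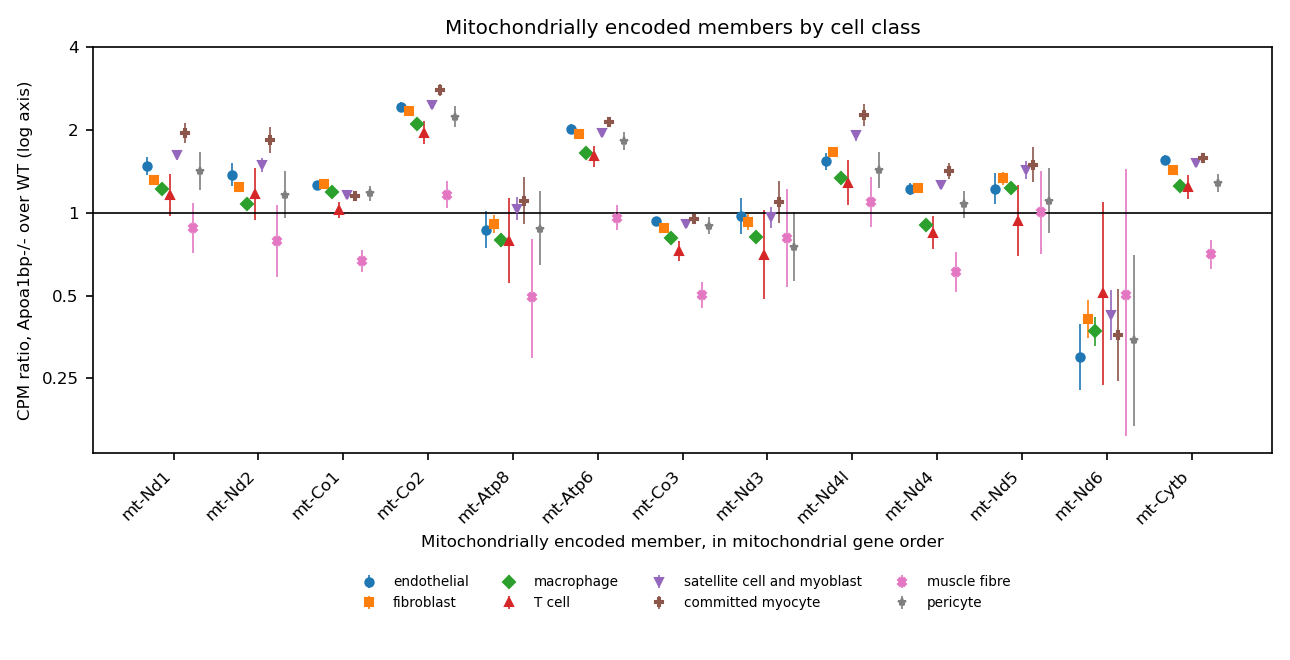
CPM ratio (Apoa1bp-/- over WT, log axis) of the 13 mitochondrially encoded members in the order of the mitochondrial genome, 1 symbol per cell class, with exact 95% counting intervals. mt-Co2 and mt-Atp6 stand highest (1.16 to 2.79 and 0.958 to 2.14), and mt-Nd6 lowest (0.300 to 0.513).

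Other genes of the pathway were counted in the same way over all kept cells, where 17.2% of genes were higher and 24.7% lower by the limits and 17 of 40 nuclear and 7 of 13 mitochondrially encoded members were higher. Of genes under 2000 bases, 33.9% were higher and 10.7% lower, and the lists below were not matched for length. Of 38 other nuclear subunits 12 were higher and 0 lower, among them Atp5pb, the stator b subunit, with 419 CPM in Apoa1bp-/- and 259 CPM in WT cells (ratio 1.62), and Ndufab1, the acyl carrier protein of complex I, with 325 CPM in Apoa1bp-/- and 230 CPM in WT cells (ratio 1.41). Of 77 measured mitochondrial ribosomal proteins, which translate the mitochondrially encoded members, 41 were higher and 0 lower, with a median log2 ratio of 0.34. Mrpl39 had 30.6 CPM in Apoa1bp-/- and 15.8 CPM in WT cells (ratio 1.94) and Mrpl40 51.5 CPM in Apoa1bp-/- and 30.1 CPM in WT cells (ratio 1.71). Of 41 measured assembly factors 13 were higher, such as Surf1 (37.8 CPM in Apoa1bp-/- and 25.7 CPM in WT cells), which builds complex IV, and 2 lower, such as Cox17 (129 CPM in Apoa1bp-/- and 180 CPM in WT cells), its copper chaperone. Of 23 measured genes of mitochondrial genome expression 7 were higher, such as Ssbp1, the mitochondrial single-stranded DNA binding protein (101 CPM in Apoa1bp-/- and 69.6 CPM in WT cells). None of 8 measured regulators of mitochondrial biogenesis was past either limit over all kept cells, including Nrf1 (18.7 CPM in Apoa1bp-/- and 20.3 CPM in WT cells) and Gabpa (22.4 CPM in Apoa1bp-/- and 25.1 CPM in WT cells). The 3 ADP/ATP and phosphate carriers Slc25a4, Slc25a5 and Slc25a3 were higher, Slc25a5 with 415 CPM in Apoa1bp-/- and 277 CPM in WT cells, and Ucp2, an uncoupling protein homologue, had 328 CPM in Apoa1bp-/- and 401 CPM in WT cells (ratio 0.818).

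These counts over all kept cells pool classes that made up unlike parts of the libraries, such as fibroblasts, with 14.7% of the Apoa1bp-/- and 28.9% of the WT cells. Of all genes, 9.31% were higher and 30.6% lower in macrophages, 25.4% and 49.4% in fibres, and 35.1% and 34.3% in T cells. The shares for the other classes are those given for the nuclear list. Within classes the 38 other nuclear subunits had 4 higher and 4 lower in macrophages, 2 higher and 5 lower in fibres, and 10 higher and 2 lower in T cells. In the other 5 classes 6 to 13 of them were higher and 0 lower. Mitochondrial ribosomal proteins had 17 higher and 2 lower in macrophages, 17 higher and 14 lower in fibres, 36 higher and 13 lower in T cells, and 33 to 39 higher and 0 to 5 lower in the other classes. Of 42 assembly factors, 12 were higher (28.6%) and 15 lower (35.7%) in fibres. Of 40 measured in macrophages, 5 were higher (12.5%) and 3 lower (7.5%). Of 20 measured genes of mitochondrial genome expression, 3 were higher (15.0%) and 6 lower (30.0%) in macrophages. In fibres 7 of 22 were higher (31.8%) and 8 lower (36.4%). None of the 5 measured carriers was higher in macrophages. The 6 lower genes of genome expression in macrophages were thus near the share of all genes. The ribosomal proteins higher in fibres (21.8%) were below it. Regulators of mitochondrial biogenesis did pass the lower limit within classes, 6 of 9 measured in committed myocytes, 6 of 8 in fibres, 3 of 8 in macrophages, 3 of 7 in fibroblasts and 2 of 7 in endothelial cells, beside the shares of genes given for the nuclear list. In T cells 3 were higher and 3 lower. Their median log2 ratio ran from -0.63 in fibres to 0.01 in T cells.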

How the data were processed

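Droplet single-cell libraries of adductor muscle, 1 per genotype, were analysed from the authors' deposited raw UMI counts per gene and barcode, which are not normalized. Cell Ranger produced them, in version 5.0.0 per the file headers but 2.1.1 per the submitters' processing notes. Genome build: not given in the sources used here. GENCODE M21 supplied lengths and overlaps. The members and lists were chosen with earlier results of these data known. The samples were grouped by the genotype label.

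Barcodes with under 200 genes (31 Apoa1bp-/-, 49 WT) or over 10% mitochondrially encoded UMIs (197 and 149) were removed, a limit on the measured genes themselves, as were Scrublet doublets (524 and 1664, or 5.72% and 12.0%, with 7.33% and 11.1% expected at 0.8% per 1000 barcodes). A marker was on in a cell with at least 1 UMI at or above its mean CPM, and a class needed 3 of its 8 markers on and 2 more than any other list. Of the 7074 Apoa1bp-/- and 10467 WT cells in classes, 1000 and 1156 were at the edge of this rule.

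UMIs were summed per class and library. Ratios have exact conditional 95% intervals, and log2 ratios a prior of 0.5 UMIs. Genes needed 5 CPM in either library, and 5 CPM was added in comparisons with the median class. All 53 members passed in each of the 8 classes. Ratios, intervals and counts past a fold were tested on simulated data. A first criterion for the recovery of changed genes was missed in the smallest simulated class, where genes hold few UMIs, and recovery was then judged on genes with enough UMIs. In small classes (pericytes, T cells, fibres) genes with few UMIs pass the fold by counting error alone. Counts over all pairs of a member and a class are therefore also given with intervals that leave out 1. Counts of the other lists and of short genes are by the fold alone. Values are given in full for the 13 mitochondrially encoded members, for nuclear members past 1.25 or 0.8 with an interval that left out 1 in at least 4 of the 8 classes, and for the nuclear member with the most UMIs of each complex. Of other lists, members of at least 20 CPM with the largest ratios are named. Other members given with values (such as Sdha, Sdhc and Atp5b) were chosen after their values were seen. Atp5o has 2 entries in the file, of which 1 held all UMIs. Alternatives changed filters, gates, depth and scaling. Python 3.11.15, scanpy 1.11.5, scipy 1.17.1, R 4.3.3 and edgeR 4.0.16 (TMM factors only) were used.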

Additional observations from a re-analysis of the deposited data

Results flagged for a closer look

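The summed UMIs of the mitochondrially encoded members were below WT in 2 classes while they were above it in the other 10 that had at least 50 cells in each library. In muscle fibres the ratio was 0.763 (0.731 to 0.795), from 3934 UMIs in the Apoa1bp-/- and 5182 in the WT library. In neutrophils it was 0.786 (0.736 to 0.841), from 4833 and 1073 UMIs of 187 and 56 cells. The difference between classes was not tested, since each genotype has 1 library. The fibre value rests on which few barcodes are counted, as the report gives.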

How the results depend on the processing

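No paired analysis was possible because each genotype has 1 library. Of 955 values recomputed under the alternatives, 831 stayed within a range or within 1.5 times a count, 121 moved and 3 changed direction. The range of a single ratio or balance was its counting interval. For medians over members or classes it was the median of their interval bounds, which is not the counting error of that median. A change of direction was counted only where the range of the reported value left out no change. The fibre balance turned to 1.03 with no mitochondrial limit and to 1.11 in cells of at least 2000 UMIs, and the median ratio of mt-Nd4 to 0.969 with a mean over cells. The median over classes of the mitochondrially encoded log2 ratios was 0.29, and 0.14 with a mean over cells and 0.18 after thinning each cell to 1000 UMIs. The median balance of 1.29 became 1.13 with a mean over cells, 1.19 after thinning, 1.27 with a looser gate, 1.30 with doublets kept and 1.33 in cells of at least 2000 UMIs. With a fold of 1.5, higher pairs numbered 43 nuclear and 24 mitochondrially encoded, and lower pairs 3 and 11. Lower nuclear pairs, 15 as reported, were 4 with TMM factors, 4 with median-of-ratios factors, 23 with a mean over cells, 27 after thinning and 8 without fibres, an alternative chosen after seeing the data. Lower mitochondrially encoded pairs, 19 as reported, were 10 in cells of at least 2000 UMIs, 30 with a mean over cells and 12 without fibres. The causes were not tested. Depth limits the T cell, pericyte and fibre values most. Depth per cell also differed unevenly between the libraries. Median UMIs were 7824 in Apoa1bp-/- and 2854 in WT endothelial cells, and 4756.5 in Apoa1bp-/- and 1625 in WT pericytes. In fibres they were 1101 in Apoa1bp-/- and 1155 in WT.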
